A study of Mus musculus with 24 samples.

Results

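The 8 genes described here handle zinc, copper and iron, and were followed in mouse lung after diesel exhaust particles given with and without ovalbumin. They are the metallothioneins Mt1 and Mt2, the zinc importers Slc39a4 and Slc39a14, the iron exporter Slc40a1, the iron hormone gene Hamp, the transferrin receptor gene Tfrc and the metalloreductase gene Steap4. They make up 8 of the 12393 genes measured and were chosen by name. The choice was made with earlier results of these data known, and those results name Mt2 and Hamp among genes that differed between particles and saline. For that reason differences of particles from saline are given as a description, without p-values for the 8 genes. Which comparisons placed the other genes is not recorded, so p-values in the other comparisons are not independent of the choice either. Each gene is represented by its probe set with the highest mean, out of 15 probe sets that carry 1 of the 8 symbols, and the other probe sets served as a check.

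Lung RNA came from 24 female BALB/C mice, an inbred strain, aged 8 to 10 weeks, with 3 mice and 3 Affymetrix arrays per group. 3 groups received 150 ug of C-DEP, A-DEP or N-DEP, diesel exhaust particles that the series title calls chemically distinct, together with 20 ug ovalbumin (OVA), an egg white protein used as a model allergen. 1 group received OVA alone, 3 groups received 150 ug of each particle without OVA, and 1 group received saline. All were dosed through the nose on days 0 and 13 and killed 18 hours later, so the OVA groups met the allergen at both doses, and the labels mark them as sensitized. The particles are written CDEP, ADEP and NDEP here. Levels are log2 intensity, and levels of different genes are not compared, because probe sets differ in brightness.

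Metallothioneins are small cysteine-rich proteins that bind zinc and copper, and their genes are switched on by metals through the factor Mtf1, by glucocorticoids and by oxidative stress. Zinc importers of the SLC39 family bring zinc into the cytosol, and Slc39a14 also carries iron. Cells take up iron bound to transferrin through the receptor Tfrc, Steap4 reduces iron and copper at membranes, and the only known cellular iron exporter, ferroportin (Slc40a1), is removed from the cell surface by hepcidin, the product of Hamp, which is made mainly in liver and is induced by IL-6 and BMP signals.

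Mt1 lies on mouse chromosome 8 at 94178883 to 94180327 and Mt2 beside it at 94172618 to 94173567, in build GRCm38.p6. Hamp lies on chromosome 7 at 30942368 to 30944029 and Steap4 on chromosome 5 at 7960472 to 7982213. Slc39a4 lies on chromosome 15 at 76612383 to 76618506, Slc39a14 on chromosome 14 at 70303467 to 70351452, Slc40a1 on chromosome 1 at 45908070 to 45926532 and Tfrc on chromosome 16 at 32608896 to 32632794.

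RefSeq promoter windows of GRCm38.p6, from 250 bases before to 50 bases after a gene's start, were found for 5 of the 8 genes by symbol. Shown are Mt1 and Mt2, the pair whose levels moved together, and Hamp and Steap4, which moved apart in lungs given CDEP with OVA. Capitals in Mt1 and Mt2 mark the metal response element, searched as TGCACNC and TGCGCNC on both strands, and in Mt2 also the antioxidant response element TGACNNNGC. Capitals in Hamp mark the BMP response element GGCGCC and the STAT site TTCNNNGAA, and in Steap4 the STAT site.
Mt1 (chr8:94178839-94179138, plus strand): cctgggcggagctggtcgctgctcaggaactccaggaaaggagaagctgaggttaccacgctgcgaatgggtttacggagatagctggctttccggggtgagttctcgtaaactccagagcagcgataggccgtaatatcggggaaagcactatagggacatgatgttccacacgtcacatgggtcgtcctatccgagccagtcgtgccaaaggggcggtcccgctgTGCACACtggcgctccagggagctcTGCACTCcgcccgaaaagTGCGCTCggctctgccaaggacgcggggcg
Mt2 (chr8:94172368-94172667, plus strand): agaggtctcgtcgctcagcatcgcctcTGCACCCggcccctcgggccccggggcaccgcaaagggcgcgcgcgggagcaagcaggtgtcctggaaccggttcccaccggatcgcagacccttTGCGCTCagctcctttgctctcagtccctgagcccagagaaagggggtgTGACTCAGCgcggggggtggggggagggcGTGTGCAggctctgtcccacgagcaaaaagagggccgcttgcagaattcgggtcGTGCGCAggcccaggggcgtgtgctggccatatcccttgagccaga
Hamp (chr7:30943980-30944279, minus strand): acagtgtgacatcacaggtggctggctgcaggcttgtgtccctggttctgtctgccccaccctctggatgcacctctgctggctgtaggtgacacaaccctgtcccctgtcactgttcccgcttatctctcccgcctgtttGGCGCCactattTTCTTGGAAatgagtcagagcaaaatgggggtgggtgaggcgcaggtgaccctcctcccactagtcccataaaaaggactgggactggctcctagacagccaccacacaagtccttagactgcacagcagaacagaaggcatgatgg
Steap4 (chr5:7960222-7960521, plus strand): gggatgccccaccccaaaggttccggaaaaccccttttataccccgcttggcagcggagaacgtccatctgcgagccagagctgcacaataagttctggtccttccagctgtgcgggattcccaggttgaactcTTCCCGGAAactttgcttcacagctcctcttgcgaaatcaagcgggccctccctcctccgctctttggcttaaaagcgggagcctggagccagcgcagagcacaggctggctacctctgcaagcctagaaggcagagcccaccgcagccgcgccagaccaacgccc

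The Mt1 window is set on a start that lies 206 bases inside the gene span given above, and so covers only a part of the 250 bases before that span. It holds 3 matches to the metal response element and the Mt2 window 4, with no overlap among them. Of 32851 windows in the table, 25.7% hold at least 1 such match, 1.97% at least 3 and 0.517% at least 4. The antioxidant element TGACNNNGC, which Mt2 holds 1 time, is in 12.4% of windows. The STAT site is in 8.3% of windows and in both the Hamp and the Steap4 window, and GGCGCC is in 11.9%. These matches describe the letters and are not shown to be bound sites.

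Beside OVA alone, the zinc importer Slc39a4 and Steap4 rose with all 3 particles, Slc39a14 rose with CDEP and ADEP, and Hamp fell with CDEP. Calls are made at a limma adjusted p of 0.05, with p-values adjusted over all 12393 genes by Benjamini-Hochberg. Counted over the 8 genes, 3 rose and 1 fell after CDEP with OVA, where 3.62% of all genes were called higher and 1.17% lower. After ADEP with OVA 3 rose and 0 fell, where 0.629% of all genes were called higher and 0.0565% lower, and after NDEP with OVA 2 rose and 0 fell, where 1.74% were called higher and 0.331% lower. The median log2 difference of the 8 genes was 0.34, 0.53 and 0.34 for these particles, and over all genes it was -0.01, 0.03 and 0.02. The genes were chosen with results of these data known, so these counts and p-values are not independent of that choice. The 3 comparisons share the OVA arrays. Leaving out OVA replicate 2, the lowest of its group for Slc39a4, Slc39a14, Steap4 and Tfrc, left 1 of these calls after CDEP (Hamp), 0 after ADEP and 1 after NDEP (Slc39a4). Leaving out ADEP with OVA replicate 1 or 2 also left 0 calls after ADEP.

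Beside saline, 5 of the 8 genes were higher and 1 lower past the threshold after CDEP (Mt2, Slc39a4, Slc39a14, Steap4 and Tfrc higher, Slc40a1 lower), where 2.28% of all genes were called higher and 1.76% lower. After ADEP 5 were higher and 0 lower (Mt2, Hamp, Slc39a4, Steap4 and Tfrc), where 1.16% were called higher and 0.492% lower. After NDEP 3 were higher and 0 lower (Slc39a4, Steap4 and Tfrc), where 2.25% were called higher and 0.452% lower. The genes were chosen with such differences in view, so nothing is read from these counts. After ADEP, 0 calls were left without ADEP replicate 3 or without saline replicate 1, and after CDEP, 3 were left without CDEP replicate 2.

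By group mean, the metallothioneins were highest after particles without OVA, but for Mt2 NDEP, at 8.42, was level with ADEP with OVA, at 8.41. Mt2 had log2 intensities of 8.01, 8.11 and 7.24 in lungs given CDEP with OVA, 8.84, 7.95 and 8.43 with ADEP and OVA, 7.70, 7.42 and 7.98 with NDEP and OVA, and 7.16, 7.45 and 8.13 with OVA alone. Without OVA, Mt2 was at 8.32, 9.34 and 8.95 after CDEP, 8.72, 8.48 and 8.97 after ADEP, and 7.73, 9.11 and 8.42 after NDEP, against 7.12, 7.88 and 7.57 after saline. All CDEP and ADEP lungs lay above all saline lungs, while NDEP replicate 1 lay among them, and the 3 particle groups given OVA overlapped OVA alone.

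Mt1 followed the same order among the groups without OVA. Its levels were 8.09, 9.14 and 8.81 after CDEP, 8.60, 8.34 and 8.89 after ADEP, and 8.11, 8.83 and 8.48 after NDEP, against 7.28, 8.19 and 7.80 after saline. With OVA, Mt1 was at 7.89, 7.65 and 7.47 after CDEP, 8.12, 7.77 and 8.62 after ADEP, and 7.29, 7.48 and 8.09 after NDEP, against 7.49, 7.63 and 8.24 after OVA alone. Only the ADEP lungs were all above all saline lungs, and each particle group given OVA overlapped OVA alone.

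Against saline, Mt2 differed by 1.34 ± 0.31 after CDEP, 1.20 ± 0.31 after ADEP and 0.89 ± 0.31 after NDEP (log2 difference ± SE), which is 2.54-fold, 2.29-fold and 1.86-fold. Mt1 differed by 0.92 ± 0.27, 0.85 ± 0.27 and 0.72 ± 0.27 for the same particles. The second Mt1 probe set, dim at a mean of 4.74, did not show this, at 0.19, -0.02 and 0.12, each ± 0.13. With OVA the Mt2 difference from OVA alone was 0.21 ± 0.31 after CDEP (limma adjusted p = 0.770), 0.83 ± 0.31 after ADEP (adjusted p = 0.268) and 0.12 ± 0.31 after NDEP (adjusted p = 0.958). For Mt1 the differences from OVA alone were -0.12, 0.38 and -0.17, with limma adjusted p of 0.861, 0.642 and 0.909. Neither metallothionein passed the test beside OVA alone.

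The test of whether the particle difference itself changes with OVA is the interaction, which subtracts the difference from saline from the difference from OVA, and so contains the saline arrays. For CDEP it was -1.14 ± 0.44 for Mt2 (limma adjusted p = 0.277) and -1.04 ± 0.39 for Mt1 (adjusted p = 0.255). The 95% intervals, -2.05 to -0.23 for Mt2 and -1.84 to -0.24 for Mt1, are not adjusted for the number of genes. The smaller metallothionein difference in the presence of OVA therefore did not pass the test across genes. For ADEP the interaction was -0.37 ± 0.44 for Mt2 and -0.47 ± 0.39 for Mt1, and for NDEP -0.77 ± 0.44 and -0.88 ± 0.39, with limma adjusted p from 0.694 to 0.872.

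**Figure D1:**
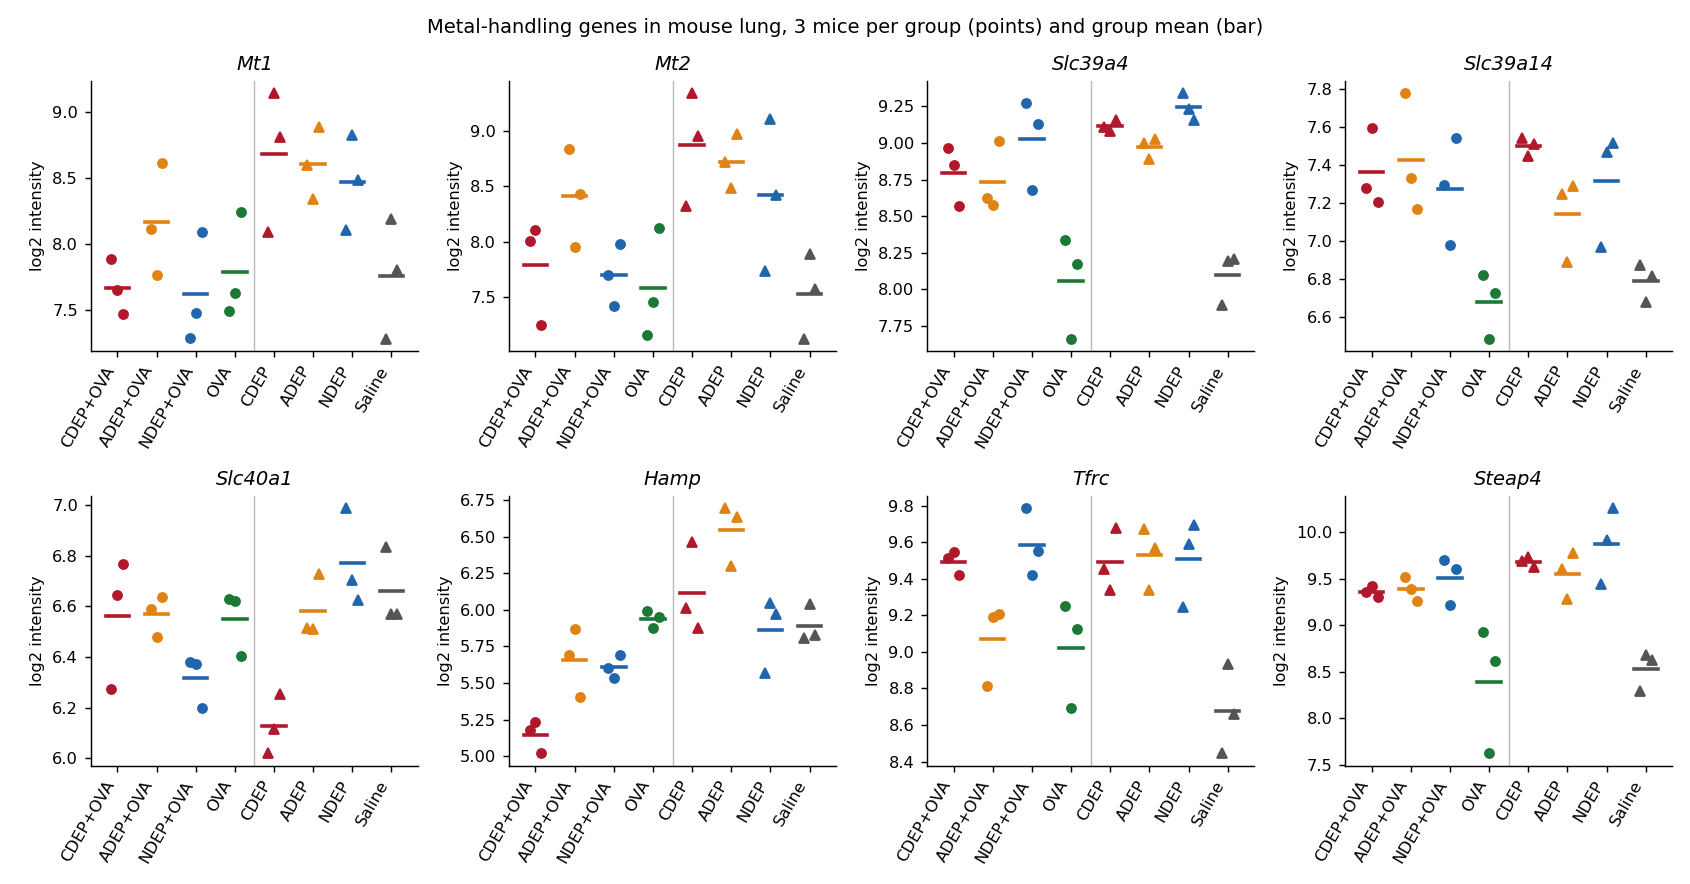
Log2 intensity of the 8 genes in each of the 24 lungs, 1 panel per gene with its own axis, with points for mice, bars for the means of 3 mice, and groups given OVA as circles to the left of the line. By group mean, Mt1 and Mt2 are highest in the particle groups without OVA, with Mt2 after NDEP level with ADEP with OVA. Slc39a4 and Steap4 are higher in all 6 particle groups than in OVA alone and saline, and Hamp is lowest after CDEP with OVA.

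Groups were put in order of their mean for each gene, and neighbouring groups were checked for overlap between arrays. For Mt1 and Mt2 none of the 7 steps between neighbouring groups in that order was free of overlap between arrays. For Slc39a4, Slc39a14 and Steap4 the order had 1 step without overlap, the one from the lowest particle group to saline, with OVA alone below saline. For Tfrc that step lay between CDEP, with a mean of 9.49, and ADEP with OVA at 9.07. For Hamp it lay between NDEP with OVA at 5.61 and CDEP with OVA at 5.14. For Slc40a1 it lay between OVA at 6.55 and NDEP with OVA at 6.32. How often such steps arise over all genes was not counted, so nothing is read from their number. Groups that are not neighbours can lie apart without such a step, as CDEP and saline lungs did for Mt2.

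Slc39a4, known as the zinc importer of the gut, was higher in particle lungs whether or not OVA was given. Its levels were 8.97, 8.85 and 8.57 after CDEP with OVA, 8.62, 8.57 and 9.01 after ADEP with OVA, and 9.28, 8.68 and 9.13 after NDEP with OVA, against 8.34, 7.66 and 8.17 after OVA alone. Without OVA they were 9.11, 9.08 and 9.16 after CDEP, 9.0, 8.89 and 9.03 after ADEP, and 9.34, 9.23 and 9.16 after NDEP, against 7.89, 8.19 and 8.21 after saline. No particle lung overlapped its control group.

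Slc39a4 rose beside OVA alone with each particle. The log2 difference was 0.74 ± 0.16 after CDEP (1.67-fold, limma adjusted p = 0.00590), 0.68 ± 0.16 after ADEP (1.60-fold, adjusted p = 0.0356) and 0.97 ± 0.16 after NDEP (1.96-fold, adjusted p = 0.000879). The ADEP call was kept in 1 of 6 fits that left out 1 array, with limma adjusted p from 0.0149 to 0.302, and was lost with all probe sets kept (adjusted p = 0.0521). Beside saline the differences were 1.02 ± 0.16, 0.87 ± 0.16 and 1.15 ± 0.16. The interactions with OVA were -0.28, -0.19 and -0.18, each ± 0.22, with limma adjusted p of 0.617, 0.785 and 0.966. Slc39a4 has 1 probe set, so no second one checks it.

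Slc39a14, the zinc and iron importer that IL-6 induces in liver, was at 7.28, 7.60 and 7.20 after CDEP with OVA, 7.78, 7.33 and 7.17 after ADEP with OVA, and 7.29, 6.98 and 7.54 after NDEP with OVA, against 6.82, 6.48 and 6.72 after OVA alone. All 9 particle lungs lay above the 3 OVA lungs. It rose by 0.68 ± 0.16 after CDEP (limma adjusted p = 0.0136) and by 0.75 ± 0.16 after ADEP (adjusted p = 0.0258). After NDEP the difference of 0.60 ± 0.16 did not pass (adjusted p = 0.0579).

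A second probe set of Slc39a14 did not show this difference after CDEP with OVA. There it gave -0.03 ± 0.14 for CDEP, 0.38 ± 0.14 for ADEP and 0.02 ± 0.14 for NDEP beside OVA alone. None of these 3 passed over all probe sets (limma adjusted p of 0.945, 0.285 and 0.988). The probe set used averaged 7.18 and the second 6.17. Beside saline, where Slc39a14 was at 7.54, 7.45 and 7.51 after CDEP, 7.25, 6.89 and 7.29 after ADEP, and 6.97, 7.47 and 7.51 after NDEP, against 6.87, 6.68 and 6.81 after saline, the particle lungs again lay above the control lungs. The log2 differences were 0.71, 0.35 and 0.53 for the brighter probe set and 0.55, 0.20 and 0.27 for the other.

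Steap4, a reductase of iron and copper that TNF-alpha induces in fat cells, rose after every particle in the lungs given OVA. Its levels were 9.36, 9.42 and 9.30 after CDEP with OVA, 9.52, 9.39 and 9.26 after ADEP with OVA, and 9.70, 9.21 and 9.61 after NDEP with OVA, against 8.92, 7.63 and 8.62 after OVA alone. OVA replicate 2, at 7.63, was the lowest lung of all 24, and the particle lungs did not overlap the OVA lungs.

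Beside OVA alone Steap4 differed by 0.97 ± 0.22 after CDEP (1.96-fold, limma adjusted p = 0.00990), 1.00 ± 0.22 after ADEP (2.00-fold, adjusted p = 0.0302) and 1.12 ± 0.22 after NDEP (2.17-fold, adjusted p = 0.00592). Without OVA replicate 2 the differences fell to 0.59, 0.62 and 0.74, with limma adjusted p of 0.108, 0.237 and 0.0671. The second, dimmer probe set gave 0.39 ± 0.20, 0.81 ± 0.20 and 0.56 ± 0.20, and none passed over all probe sets (limma adjusted p of 0.318, 0.0725 and 0.196). Without OVA, Steap4 was at 9.69, 9.73 and 9.63 after CDEP, 9.60, 9.28 and 9.78 after ADEP, and 9.44, 9.92 and 10.26 after NDEP, against 8.30, 8.69 and 8.62 after saline. Those are log2 differences of 1.15 ± 0.22, 1.02 ± 0.22 and 1.34 ± 0.22, with no overlap between particle and saline lungs. The interactions with OVA were -0.17, -0.02 and -0.22, each ± 0.32 (limma adjusted p of 0.868, 0.989 and 0.977). The dimmer probe set gave 1.52, 0.89 and 1.63 beside saline, each ± 0.20. Its interactions were -1.13, -0.08 and -1.07, each ± 0.28, and none passed over all probe sets (limma adjusted p of 0.0589, 0.944 and 0.259).

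Tfrc, the receptor that brings transferrin-bound iron into the cell, was at 9.51, 9.55 and 9.42 after CDEP with OVA, 8.81, 9.19 and 9.21 after ADEP with OVA, and 9.79, 9.42 and 9.55 after NDEP with OVA, against 9.25, 8.69 and 9.12 after OVA alone. The ADEP lungs overlapped the OVA lungs, and the CDEP and NDEP lungs did not. The log2 difference was 0.47 ± 0.15 after CDEP (limma adjusted p = 0.0867), 0.05 ± 0.15 after ADEP (adjusted p = 0.944) and 0.56 ± 0.15 after NDEP (adjusted p = 0.0555), and none passed. Of the other probe sets of Tfrc, the brighter gave -0.34 after CDEP with OVA and -0.30 after NDEP with OVA, each ± 0.21, so the direction was not shared.

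Without OVA the 3 probe sets of Tfrc differed from saline in the same direction. The brightest was at 9.45, 9.34 and 9.68 after CDEP, 9.67, 9.34 and 9.57 after ADEP, and 9.24, 9.59 and 9.69 after NDEP, against 8.45, 8.93 and 8.66 after saline. All 9 particle lungs lay above the saline lungs, with differences of 0.81, 0.85 and 0.83, each ± 0.15. The interaction of ADEP with OVA was -0.80 ± 0.22 (limma adjusted p = 0.230). For CDEP it was -0.34 ± 0.22 (adjusted p = 0.527) and for NDEP -0.27 ± 0.22 (adjusted p = 0.944). The CDEP interaction was larger in the other probe sets, at -1.17 ± 0.30 and -0.95 ± 0.23. Neither passed over all probe sets (limma adjusted p of 0.0710 and 0.0557).

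Slc40a1, which encodes the iron exporter ferroportin, was at 6.02, 6.11 and 6.25 after CDEP, 6.51, 6.51 and 6.73 after ADEP, and 6.99, 6.71 and 6.62 after NDEP, against 6.84, 6.57 and 6.57 after saline. The CDEP lungs lay below all saline lungs, with a difference of -0.53 ± 0.12, while the ADEP and NDEP differences were -0.08 ± 0.12 and 0.11 ± 0.12. The second Slc40a1 probe set went the other way after CDEP, at 0.25 ± 0.13. The direction of Slc40a1 in CDEP lungs thus depends on the probe set.

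With OVA, Slc40a1 was at 6.27, 6.65 and 6.77 after CDEP, 6.59, 6.48 and 6.64 after ADEP, and 6.38, 6.37 and 6.20 after NDEP, against 6.63, 6.62 and 6.40 after OVA alone. Only the NDEP lungs lay below all OVA lungs, at -0.23 ± 0.12 (limma adjusted p = 0.482). The differences after CDEP and ADEP were 0.01 and 0.02, each ± 0.12.

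**Figure D2:**
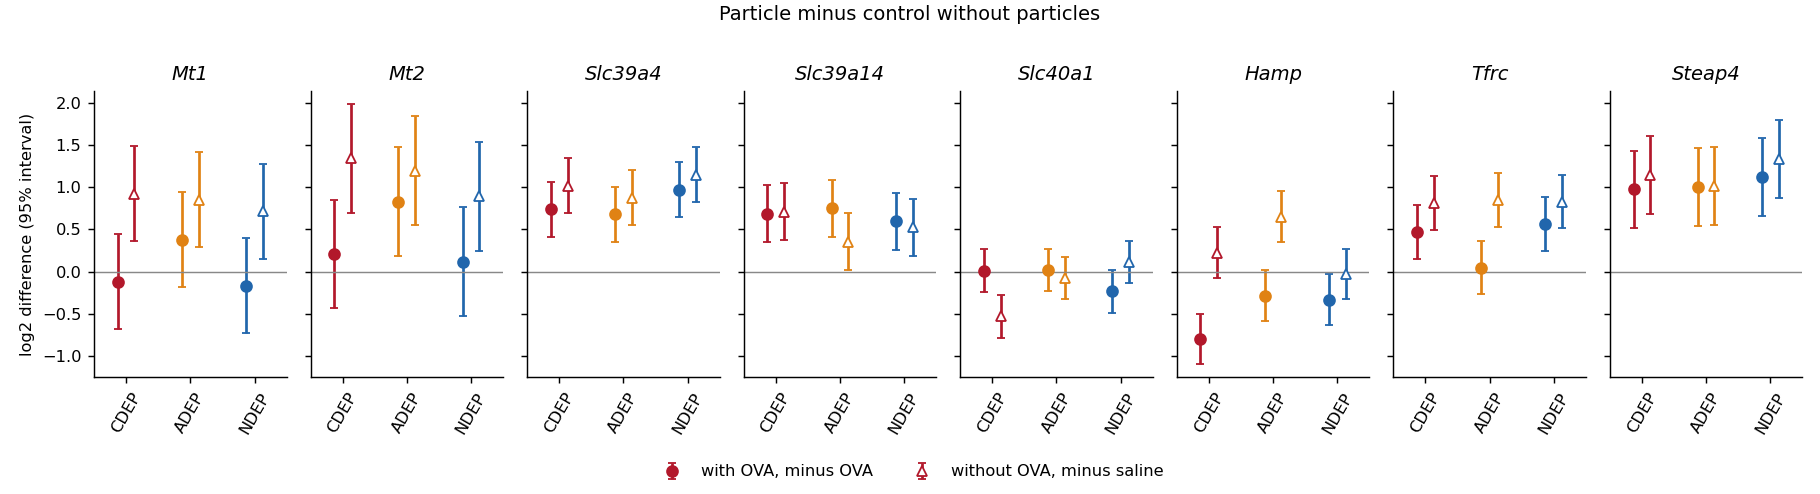
Log2 difference of each particle group from its control, with 95% intervals of the limma fit that are not adjusted for the number of genes. Filled circles are particle with OVA minus OVA and open triangles are particle minus saline. For Slc39a4 and Steap4 all 6 differences lie above 0, for Mt1 and Mt2 the circles lie below the triangles, and for Hamp the circles lie below 0.

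Hamp, which encodes hepcidin, fell after CDEP with OVA. It was at 5.18, 5.23 and 5.02 after CDEP with OVA, 5.69, 5.87 and 5.41 after ADEP with OVA, and 5.60, 5.53 and 5.69 after NDEP with OVA, against 5.99, 5.88 and 5.95 after OVA alone. All 9 particle lungs lay below the 3 OVA lungs. The Hamp level was low, with a mean of 5.14 after CDEP with OVA, where the 25th percentile of those arrays was 4.45 to 4.55. Lying above that percentile does not by itself show a level above background. Hamp fell by 0.80 ± 0.15 after CDEP with OVA (0.576-fold of OVA alone, limma adjusted p = 0.00144), and the differences of -0.28 ± 0.15 after ADEP (adjusted p = 0.465) and -0.33 ± 0.15 after NDEP (adjusted p = 0.348) did not pass.

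Without OVA, Hamp did not show that fall. It was at 6.01, 6.46 and 5.87 after CDEP, 6.70, 6.30 and 6.63 after ADEP, and 5.57, 6.05 and 5.97 after NDEP, against 5.81, 6.04 and 5.83 after saline. ADEP lungs lay above all saline lungs, with a difference of 0.65 ± 0.15, and the CDEP and NDEP lungs overlapped saline at 0.23 ± 0.15 and -0.03 ± 0.15. The interaction of CDEP with OVA was -1.02 ± 0.21 (limma adjusted p = 0.0218), a value that contains the difference from saline known when the genes were chosen, so its p is not independent of the choice. For ADEP it was -0.94 ± 0.21 (adjusted p = 0.131) and for NDEP -0.30 ± 0.21 (adjusted p = 0.913).

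The second Hamp probe set moved in the same direction, at -0.94 ± 0.24 after CDEP with OVA beside OVA alone and 1.22 ± 0.24 after ADEP beside saline. Its CDEP interaction of -1.30 ± 0.33 had a limma adjusted p of 0.0696 over all probe sets. The Hamp probe set used may also take up signal of Hamp2, the neighbouring copy of the gene in mice, and that of Mt1 may take up signal of related metallothionein transcripts, as the suffixes of their names mark. Hamp2 itself was called in none of the 16 comparisons.

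Hepcidin is also made in heart muscle, and genes of heart muscle varied between these lungs. The summed intensity of 10 heart genes, all measured and none below the 25th percentile on all arrays, ranged from 2705 to 3863 after CDEP with OVA, 4192 to 5226 after ADEP with OVA, and 3351 to 4695 after NDEP with OVA, against 6153 to 7091 after OVA alone. It ranged from 4589 to 5734 after CDEP, 6303 to 9129 after ADEP, and 4717 to 7498 after NDEP, against 6350 to 11616 after saline. In CDEP with OVA beside OVA alone 8 of the 10 genes fell and 0 rose, while over all genes 1.17% fell and 3.62% rose. After NDEP with OVA 3 of the 10 fell, where 0.331% of all genes were called lower. With the heart gene score as a covariate, chosen after seeing the data, the Hamp difference after CDEP with OVA was -0.65 ± 0.21 (limma adjusted p = 0.0938), and the CDEP interaction was -0.98 ± 0.21 (adjusted p = 0.0353). That score was 7.80 to 8.23 after CDEP with OVA and 8.82 to 9.05 after OVA alone, without overlap. The fit therefore cannot settle a part of heart RNA in the Hamp values, which was not tested. Other tissue genes varied too. The summed intensity of 6 fat genes was 421 to 584 after CDEP with OVA, against 550 to 1018 after OVA alone. For 5 red blood cell genes it was 314 to 612, against 412 to 922.

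Of 9 genes of liver, the main source of hepcidin, Fgb, Fga and Cps1 were below the 25th percentile on all arrays and the other 6 were not. Their summed intensity ranged from 230.2 to 440.4 after CDEP with OVA, against 247.7 to 267.7 after OVA alone, and none of the 9 was called in any of the 16 comparisons. A part of liver RNA in the Hamp values was not tested. The 10 lung genes, such as Sftpc and Scgb1a1, were all measured above the 25th percentile on some arrays, with a summed intensity between 42388 and 58307. In whole lung, fewer cells of a type and less RNA per cell cannot be told apart.

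**Figure D3:**
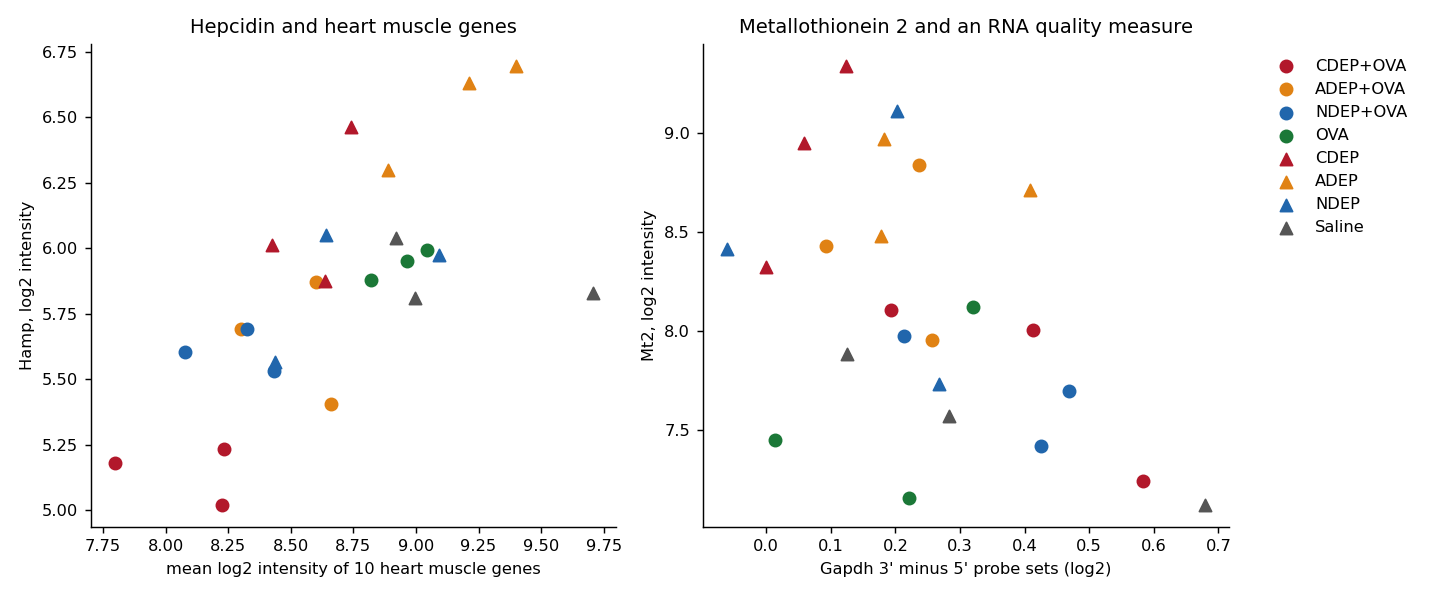
Each point is 1 lung. The left panel sets the log2 intensity of Hamp against the mean log2 intensity of 10 heart muscle genes, and the right panel sets that of Mt2 against the log2 difference between the 3' and 5' ends of Gapdh on the control probe sets, a usual sign of RNA degradation when large. The 3 lungs given CDEP with OVA are lowest for Hamp and among the lowest for heart genes, and saline replicate 1 has the highest Gapdh difference and the lowest Mt2.

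RNA quality, read from the difference between the ends of the Gapdh transcript, also differed between lungs. The Gapdh difference was 0.06 ± 0.06 after CDEP, against 0.36 ± 0.29 after saline, and 0.40 ± 0.20 after CDEP with OVA, against 0.18 ± 0.16 after OVA alone (log2, SD, n = 3). It was highest in saline replicate 1, at 0.68, and in CDEP with OVA replicate 3, at 0.58. With the Gapdh and Actb differences as covariates, the Hamp difference after CDEP with OVA was -0.71 ± 0.16 (limma adjusted p = 0.00883), but the CDEP interaction was -0.74 ± 0.28 (adjusted p = 0.506). In the same fit Mt2 differed from saline by 0.78 ± 0.39 after CDEP, and 3 of the 12393 genes passed in CDEP beside saline.

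OVA alone moved none of the 8 genes past the threshold beside saline, and 0% of all genes were called by limma, with 818 genes at an unadjusted p under 0.05. The largest of the 8 differences was that of Tfrc, at 0.34 ± 0.15 (limma adjusted p = 0.716). For Hamp, Mt1, Mt2 and Slc39a4 the difference was between -0.04 and 0.05, with 95% intervals of -0.25 to 0.35 for Hamp and -0.59 to 0.70 for Mt2. Among the interactions, Hamp after CDEP was the 1 call among the 8 genes, where 0.371% of all genes were called, and none was made for ADEP or NDEP, where 0.0242% of genes were called in each.

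No difference between 2 of the 3 particles passed the test for any of the 8 genes, with or without OVA, in 6 comparisons adjusted over all genes. Of all genes, 1.43% were called between CDEP and ADEP with OVA, 0.00807% between CDEP and NDEP with OVA, and 0.0161% between ADEP and NDEP with OVA. Without OVA 0% were called for CDEP against ADEP and for CDEP against NDEP, and 0.00807% for ADEP against NDEP. The widest gap with OVA was Mt2 between ADEP and NDEP, at 0.71 ± 0.31 with a 95% interval of 0.07 to 1.35 (limma adjusted p = 0.405). For Hamp, CDEP minus ADEP was -0.51 ± 0.15 with OVA, with an interval of -0.81 to -0.21 (limma adjusted p = 0.0713). Without OVA, Hamp in ADEP lungs was 0.68 ± 0.15 above NDEP lungs (adjusted p = 0.415), and Slc40a1 in CDEP lungs was -0.64 ± 0.12 from NDEP lungs (adjusted p = 0.252). These intervals leave room for differences between the particles that 3 mice per group could not show.

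**Figure D4:**
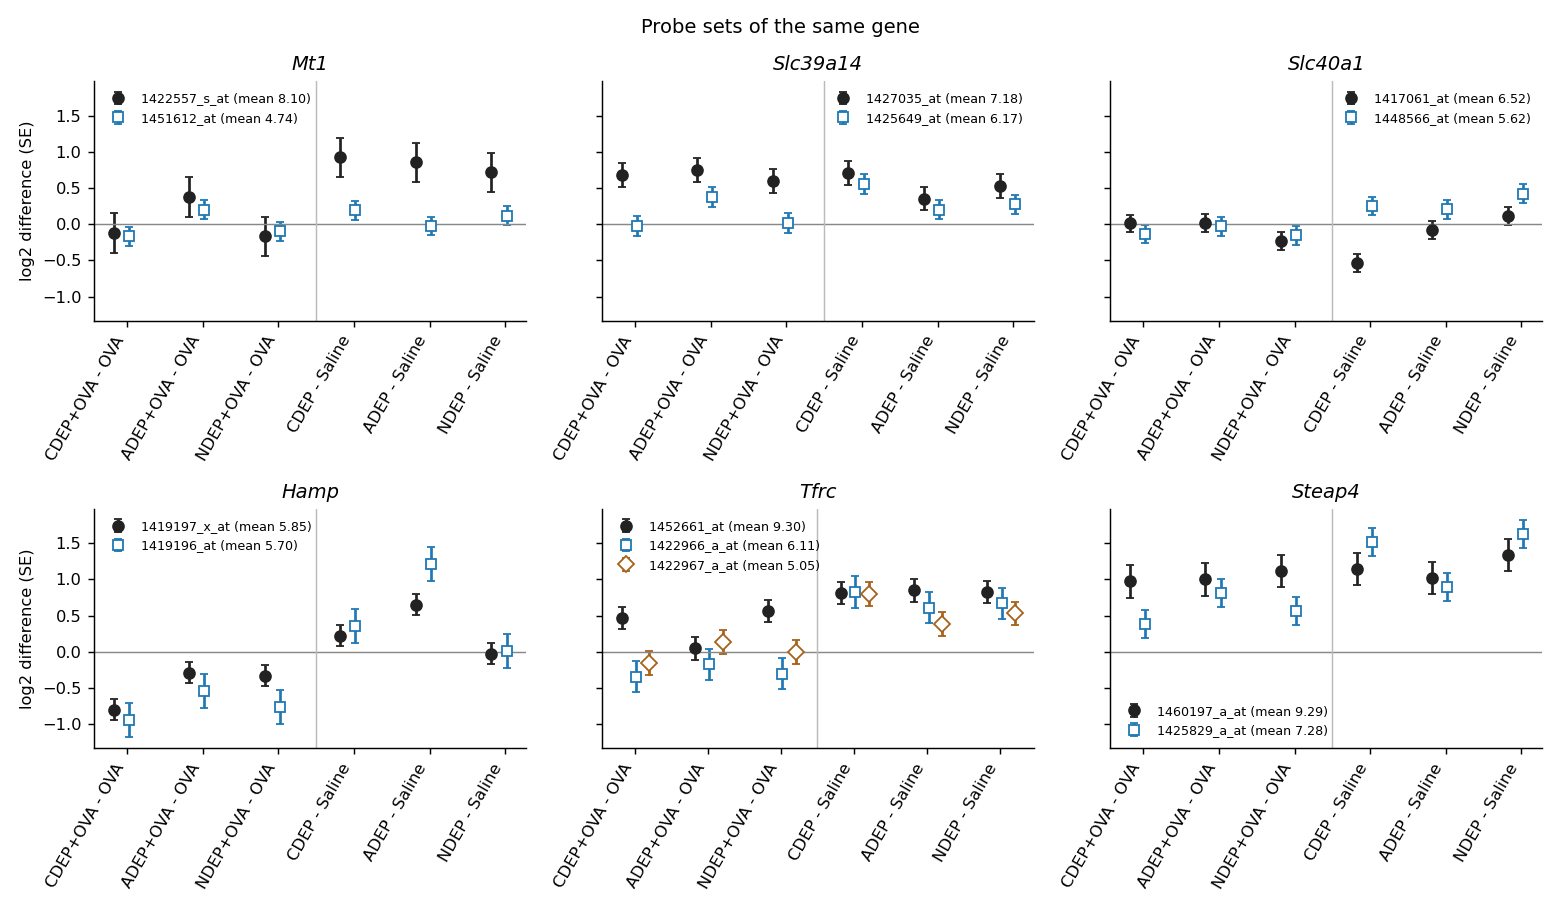
Log2 difference with its SE for each probe set of the 6 genes that have more than 1, for particle with OVA minus OVA (left of the line) and particle minus saline (right). The filled circle is the probe set used, and the legend gives each probe set's mean log2 intensity. The dim Mt1 probe set stays near 0 throughout, and the probe sets of Slc40a1, Slc39a14 and Tfrc part in direction in some comparisons. Those of Steap4 share it. Those of Hamp share it except in NDEP minus saline, where both lie near 0 (-0.03 and 0.02).

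Wider lists of zinc and iron genes, also chosen with earlier results known, were set beside the 8. Of 66 listed genes outside the 8, 52 were measured. After CDEP with OVA beside OVA alone, 5 rose and 2 fell, and the 4 with the smallest p were Scara5, a ferritin receptor (-1.26 ± 0.20, limma adjusted p = 0.000444), the heme scavenger Hpx (1.24 ± 0.26, adjusted p = 0.00523), the zinc transporter Slc39a11 (0.49 ± 0.11, adjusted p = 0.00919) and Neo1, which takes part in hepcidin control (-0.42 ± 0.11, adjusted p = 0.0195). After NDEP with OVA 4 rose and 2 fell, led by Hpx (1.30), Neo1 (-0.51), Slc11a1, a metal transporter of phagosomes (0.67), and the ferroxidase gene Cp (0.89). After ADEP with OVA Slc11a1 alone rose (0.70 ± 0.16, adjusted p = 0.0318). Of the 52, 9.62% were called higher and 3.85% lower after CDEP with OVA, against 3.62% and 1.17% of all genes. After NDEP with OVA the shares were 7.69% and 3.85%, against 1.74% and 0.331%. After ADEP with OVA they were 1.92% and 0%, against 0.629% and 0.0565%.

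Beside saline, 3 of the 52 genes rose and 1 fell after CDEP, 2 rose after ADEP, and 3 rose and 1 fell after NDEP. For CDEP that is 5.77% higher and 1.92% lower, against 2.28% and 1.76% of all genes. For ADEP it is 3.85% and 0%, against 1.16% and 0.492%. For NDEP it is 5.77% and 1.92%, against 2.25% and 0.452%. Hpx was called after all 3 particles, at 1.17, 1.33 and 1.27. Scara5 fell by 0.86 after CDEP and by 0.92 after NDEP. The iron importer Slc11a2 (0.46) and the iron chaperone Pcbp1 (0.33) rose after CDEP, Cp (0.90) rose after ADEP, and Slc11a1 (0.67) and the zinc transporter Slc39a7 (0.42) rose after NDEP. The median over the 52 genes lay between 0.03 and 0.08 in these 6 comparisons. Slc30a5, which moves zinc into the secretory pathway, was 0.47 ± 0.12 higher in CDEP than in ADEP lungs with OVA (limma adjusted p = 0.0392). OVA alone moved none of the 52. Mt3, Mt4 and the metal-sensing factor Mtf1 passed in no comparison.

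Lists of genes around 2 known inducers were set beside these. Of 10 measured genes of the IL-6 and STAT3 list, 3 rose after CDEP with OVA beside OVA alone, where 3.62% of all genes rose. They were Il1b (1.17 ± 0.25), Socs3 (0.85 ± 0.24) and Il6 (0.72 ± 0.19). Il1b (1.19 ± 0.25) also rose after ADEP with OVA, where 0.629% of all genes were called higher. None of the 10 was called after NDEP with OVA, where 1.74% of all genes were called higher. Beside saline Il1b and Stat3 were called higher after all 3 particles, and Osmr also after CDEP. Il6 averaged 4.22 after CDEP with OVA, below the 25th percentile of those arrays, so it is not shown to lie above background. None of 9 glucocorticoid-responsive genes passed in any comparison. The summed intensity of 10 neutrophil genes was 2004 to 2151 after CDEP with OVA, 1387 to 2129 after ADEP with OVA and 1529 to 2350 after NDEP with OVA, against 1068 to 1698 after OVA alone, and none of the 10 was called there. It was 1950 to 2137 after CDEP, 1949 to 2894 after ADEP and 1873 to 2456 after NDEP, against 1259 to 1636 after saline. Ltf, the brightest of the 10 at a mean of 9.81 and also in the iron lists, weighs most in these sums. S100a8 and S100a9 were called higher beside saline after all 3 particles, and Csf3r after CDEP and NDEP. Camp averaged lower, at 5.08, 5.06 and 4.95 after CDEP, ADEP and NDEP, against 5.23 after saline. Of 9 macrophage genes, 4 rose after CDEP with OVA and 4 after NDEP with OVA, where 3.62% and 1.74% of all genes were called higher. Fabp4 averaged lower in these groups, at 6.18 and 6.98, against 7.40 after OVA alone. Siglecf, below the 25th percentile on all arrays, also averaged lower, at 3.75 and 3.91, against 3.93. Beside saline 0 of the 9 were called. Their part in the differences of the 8 genes was not tested.

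The genes whose levels followed each of the 8 most closely over the 24 lungs are given as a description, since the lungs share the group differences. Mt2 was the gene most like Mt1 (Pearson r = 0.91 over 24 arrays, and 0.83 after group means were removed), followed by Uqcc2, an assembly factor of the respiratory chain (0.90) and the ribosomal protein gene Rpl41 (0.87). For Mt2, Mt1 was followed by Uqcc2 (0.87) and the ATP synthase gene Atp5g1 (0.86). Steap4 was most like Cfb, the complement factor B gene (0.96), and the acute phase genes Saa3 (0.96) and Lcn2 (0.95). Slc39a4 was most like Noxo1, an organiser of NADPH oxidase (0.96), Lcn2 (0.94) and Chil1 (0.94).

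Slc39a14 was most like Serpina3n (0.91), Tmem176a (0.88) and Timp1, an inhibitor of matrix proteases (0.88). Tfrc was most like Chil1 (0.90), the surfactant protein gene Sftpd (0.89) and Slc16a1, a lactate transporter (0.88). Hamp was most like Eef1a2 (0.81), an elongation factor of heart, muscle and brain, then Hamp2 (0.80) and Adh7 (0.77), and these fell to 0.46, 0.39 and 0.33 after group means were removed. Slc40a1 had the weakest likeness, with 4632415L05Rik (0.75), Rnf19a (0.74) and Bmpr1a (0.72). Among the 8 genes themselves, Slc39a4 and Steap4 had r = 0.91, and Slc40a1 was negative with each of the other 7.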

How the data were processed

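RNA of frozen lung was hybridised to 1-colour Affymetrix arrays, per the labels' protocols. The deposited values are intensity per probe set, normalized with RMA, a multi-array averaging method named in the submitters' processing notes, without version or settings. With a range of 5.98 to 18196 and medians per array of 72.2 to 75.5 they are linear, and log2 was taken here. RMA can compress differences of dim probe sets, and the number of arrays limits the precision. Of 22690 probe sets, 64 controls were left out and 20380 had 1 symbol in the platform annotation. 691 with several symbols and 1555 with none were not named. The probe set with the highest mean stood for each of 12393 genes, and no gene of the 8 had a group mean below its arrays' 25th percentile.

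limma 3.58.1 in R 4.3.3 fitted 8 group means to 24 arrays (16 residual and 8.159 prior degrees of freedom). Moderated two-sided tests were adjusted by Benjamini-Hochberg over 12393 genes in each of 16 comparisons, with calls at 0.05. Tables were handled with pandas 2.3.3 and numpy 2.4.6 under Python 3.11.15, and plots drawn with matplotlib 3.10.9. The script was tested on simulated data.

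The members and gene lists were chosen with earlier results of these data known, and which comparisons placed each member is recorded for Mt2 and Hamp only, so no p-value here is independent of that choice. The text names all 8 members, up to 4 called genes with the smallest p per comparison from 5 zinc and iron lists, and the 3 genes with the highest Pearson r for each member. The design says 3 mice per group, and no array pair was a copy (highest r 0.996). Alternatives were all probe sets, a filter on dim genes (10381 kept), array weights, quantile normalization again, a trended and robust variance, the compared groups only, the replicate number as a block, RNA quality covariates, other member probe sets and each array left out. A heart score covariate and leaving out the 2 arrays of highest Gapdh difference were added after seeing the data. The replicate numbers are not stated to mark a shared batch.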

Additional observations from a re-analysis of the deposited data

Results flagged for a closer look

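The difference in Hamp between CDEP lungs and their controls was compared with and without OVA. The difference of CDEP with OVA from OVA alone minus that of CDEP from saline was -1.02 ± 0.21 on the log2 scale, with a limma adjusted p of 0.0218. Earlier results that named Hamp among genes differing between particles and saline were known when it was chosen, and the value contains that difference, so the p is not independent evidence. The group means were 5.14 after CDEP with OVA and 5.94 after OVA alone, and 6.12 after CDEP and 5.89 after saline. Leaving out each of the 12 arrays in turn gave limma adjusted p between 0.0174 and 0.0801, with the call lost for 6 of them, and with RNA quality covariates it was -0.74 (adjusted p = 0.506).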

How the results depend on the processing

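With 1 array left out at a time, the number of the 8 genes called ranged from 1 to 5 after CDEP with OVA beside OVA alone (4 with all arrays), from 0 to 3 after ADEP with OVA (3) and from 1 to 4 after NDEP with OVA (2). Beside saline it ranged from 3 to 7 after CDEP (6), from 0 to 5 after ADEP (5) and from 3 to 5 after NDEP (3), and for the CDEP by OVA interaction from 0 to 1 (1). For OVA beside saline, the other interactions and the particle pairs it was 0 to 0. The counts moved by over 1.5 times without OVA replicate 2 for all 3 particles with OVA, without OVA replicate 3 after ADEP with OVA, without CDEP with OVA replicate 2, each ADEP with OVA array, and NDEP with OVA replicates 2 and 3, and beside saline without CDEP replicate 2, ADEP replicates 1 and 3, NDEP replicate 1, and saline replicates 1 and 3 after ADEP. Array weights gave 4 calls after NDEP with OVA, 1 call (Hamp) for the ADEP by OVA interaction and 1 call (Hamp) between CDEP and ADEP with OVA, against 0 in both. A fit on the compared groups alone gave 0 calls after ADEP with OVA and 1 after NDEP with OVA. The second probe sets, where a gene has them, gave 2, 1 and 1 calls after CDEP, ADEP and NDEP with OVA and 0 for the CDEP by OVA interaction, and turned the sign of Slc40a1 in CDEP beside saline (0.25) and of Slc39a14 after CDEP with OVA beside OVA alone (-0.025). RNA quality covariates left 0 calls in CDEP beside saline and 0 for the CDEP by OVA interaction. The heart score left 1 call (Steap4) after CDEP with OVA. Without the 2 arrays of highest Gapdh difference 1 call (Slc39a4) was left in ADEP beside saline and 0 for the CDEP by OVA interaction. The cause of these changes was not tested. Of 414 values of called differences under these alternatives, 91 lost the call and the 2 above changed sign. Of 1906 values of differences not called, 18 gained a call and 145 changed sign.

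Over all genes, the count called in CDEP beside saline was 501, against 874 probe sets with all of them kept, 1450 with array weights, 297 with the compared groups only, 238 with the heart score, 173 without the 2 arrays and 3 with RNA quality covariates. With each array left out it ranged from 144 to 603. After CDEP with OVA it was 594, against 1055 with array weights and 310 with the heart score, with a range of 217 to 573. After ADEP with OVA it was 85, against 313 with array weights, 143 without the 2 arrays and 130 with RNA quality covariates, with a range of 18 to 97 when each array was left out. After NDEP with OVA it was 257, against 400 with array weights, 169 with the heart score and 102 with the compared groups only, with a range of 78 to 423. In ADEP beside saline it was 205, against 718 with array weights and 33 without the 2 arrays, with a range of 8 to 274. In NDEP beside saline it was 335, against 718 with array weights and 126 with RNA quality covariates, with a range of 152 to 407. The CDEP by OVA interaction had 46, against 263 with array weights and 13 with RNA quality covariates, with a range of 17 to 73. CDEP against ADEP with OVA had 177, against 404 with the heart score and 19 with the compared groups only, with a range of 35 to 386. With the replicate number as a block the members called were 4, 3 and 2 after CDEP, ADEP and NDEP with OVA, as without it, and 7 in CDEP beside saline, where Mt1 was added. Deviations from the group means had a median r of 0.03 over 84 pairs of samples of the same number, from -0.32 to 0.35. Over 168 pairs of different numbers it was -0.01, from -0.36 to 0.35. With 3 arrays per group this cannot settle whether the numbers mark a pairing or a batch. Dim probe sets limit the second probe set of Mt1, at a mean of 4.74.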
